A study of Mus musculus with 13 samples.

Results

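The genes described here are the nuclear genes of the mitochondrial ribosome whose symbols begin with *Mrpl* or *Mrps* and a digit. They were taken as every protein-coding gene of the mouse annotation with such a symbol, which gave 78 genes of the 36109 genes listed in the files. By symbol, 49 belong to the large subunit (*Mrpl*) and 29 to the small subunit (*Mrps*). All 78 were listed, and all 78 passed the filter on low counts in each tissue.

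RNA was sequenced from aortic endothelial cells (ECs) and from whole hearts of mice kept in room air that carried both copies of *Hmox2* (*Hmox2*+/+, called WT) or lacked them (*Hmox2*-/-, called KO). *Hmox2* encodes heme oxygenase 2, and the KO mice were used as a model of sleep apnea. There were 4 heart WT, 3 heart KO, 3 EC WT and 3 EC KO libraries, each numbered within its group. WT mice were littermates of KO mice, the deletion was present in all cells, and the study calls the sequenced mice young without giving their sex. The series text calls the EC and heart samples matched pairs, but no label ties an EC library to a heart library, so both tissues may come from the same mice. EC RNA was lysed from the lumen of the aorta and heart RNA was taken from pulverized frozen tissue with another kit, so tissue and extraction cannot be told apart.

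The mitochondrial ribosome, or mitoribosome, translates the small set of proteins that mitochondrial DNA still encodes, which are subunits of the oxidative phosphorylation complexes. Its RNAs are transcribed inside the mitochondrion, whereas all of its proteins are made from nuclear genes in the cytosol and imported. The small subunit binds and decodes the mRNA, and the large subunit joins the amino acids and releases the chain beside the inner membrane. Part of the proteins have bacterial counterparts and part are found only in mitochondria. Heart muscle is rich in mitochondria, and inherited defects of several of these proteins in humans cause mitochondrial disease, some with cardiomyopathy.

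The symbols do not always give the place of a protein. *Mrps18a* and *Mrps30* encode proteins that sit in the large subunit of the known structures, and *Mrps36* encodes a component of the α-ketoglutarate dehydrogenase complex and not a ribosomal protein. Sorted by place in the structure, 51 genes belonged to the large and 26 to the small subunit. The genes lay on 17 chromosomes, with 3 of them on chromosome 16, which also carries *Hmox2*. Of these 3, *Mrpl40* was nearest to *Hmox2*, at a distance of 14.1 Mb.

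Promoter stretches are shown because factors of the ETS family, NRF1 and YY1 are known to act at promoters of nuclear genes for mitochondrial proteins. Whether these factors have a part in the comparisons given later was not tested. Promoters from RefSeq (GRCm38.p6), from 250 bases before to 50 bases after the start of transcription, were matched by symbol for 69 of the 78 genes. The 150 bases before the start are printed below, 5′ to 3′ on the strand of the gene. Capitals mark letters of an ETS site (CCGGAAG), an NRF1 site (GCGCATGC) or a YY1 site (AAGATGGC) on either strand. *Mrpl53* and *Mrps16* are shown as 2 of the genes with the largest difference in heart tissue, and *Mrpl32* and *Mrpl22* for their NRF1 letters. *Mrps11* is shown because its start lies 412 bases from that of *Mrpl46* on the other strand in the gene annotation (GRCm39). By the RefSeq starts the 150-base stretches of these genes overlap. *Mrpl12* is shown as a gene with a large difference in heart tissue and no ETS, NRF1 or YY1 letters in the stretch. RefSeq lists 2 starts for *Mrps16*, and the stretch before the other start held no ETS, NRF1 or YY1 letters.
Mrpl53, chr6:83108958-83109107, plus strand: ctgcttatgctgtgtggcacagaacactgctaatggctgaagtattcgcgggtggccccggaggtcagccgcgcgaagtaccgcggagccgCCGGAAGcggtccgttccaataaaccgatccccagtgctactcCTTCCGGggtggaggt
Mrps16, chr14:20393491-20393640, minus strand: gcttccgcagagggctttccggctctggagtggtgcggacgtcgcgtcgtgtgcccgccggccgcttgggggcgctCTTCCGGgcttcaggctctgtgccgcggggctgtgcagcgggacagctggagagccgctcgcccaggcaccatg
Mrpl32, chr13:14613038-14613187, minus strand: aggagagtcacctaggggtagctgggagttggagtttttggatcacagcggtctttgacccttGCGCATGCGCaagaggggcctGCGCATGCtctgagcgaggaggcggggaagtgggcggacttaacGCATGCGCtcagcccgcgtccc
Mrpl22, chr11:58171514-58171663, plus strand: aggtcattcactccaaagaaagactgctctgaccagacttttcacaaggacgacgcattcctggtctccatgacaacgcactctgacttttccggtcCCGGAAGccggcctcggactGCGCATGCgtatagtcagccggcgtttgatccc
Mrps11, chr7:78782981-78783130, plus strand: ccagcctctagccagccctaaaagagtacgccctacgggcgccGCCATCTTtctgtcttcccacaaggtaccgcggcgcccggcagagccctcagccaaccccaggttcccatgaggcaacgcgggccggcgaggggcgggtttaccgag
Mrpl12, chr11:120484487-120484636, plus strand: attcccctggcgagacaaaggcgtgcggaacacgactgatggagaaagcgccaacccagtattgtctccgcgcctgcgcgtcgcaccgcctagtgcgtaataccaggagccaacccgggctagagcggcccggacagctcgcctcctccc

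Both strands of all promoters of the same length were searched for the same letters. The ETS letters, read by factors such as GABP, were found in 26 of the 69 genes (37.7%). They were found in 8.86% of all 32851 promoters and in 18.9% of the 10411 searched genes that were tested in heart tissue. Here and below, the share of all promoters counts promoters, and the other shares count genes. The YY1 letters were found in 12 genes (17.4%) against 2.75% of all promoters and 5.03% of the tested genes. The NRF1 letters were found in 8 genes (11.6%) against 2.71% and 5.72%. The SP1 letters (GGGCGG) were found in 34 genes (49.3%), which is more than in all promoters (35.7%) and less than in the tested genes (67.5%). The CCAAT letters were found in 27 genes (39.1%), against 37.4% of all promoters and 42.5% of the tested genes. The ETS and YY1 letters can overlap by AAG, and the NRF1 letters can overlap their own reverse complement. In heart tissue, genes with and without the ETS letters had median log2 fold changes of 0.61 and 0.56, and in ECs of -0.37 and -0.31. With and without the NRF1 letters the medians were 0.54 and 0.60 in heart tissue, and -0.41 and -0.34 in ECs. With and without the YY1 letters they were 0.57 and 0.60 in heart tissue, and -0.29 and -0.36 in ECs. A match of letters is a description of the window and not a measured binding site.

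The targeted gene was examined first. *Hmox2* was 37.3 to 42.5 CPM in heart WT and 7.53 to 8.90 CPM in heart KO libraries, and 63.9 to 76.2 CPM in EC WT and 12.6 to 14.7 CPM in EC KO libraries. CPM are estimated counts scaled by the TMM-normalized library size. Total estimated counts were 7268626 in heart WT 1 and between 26067147 and 31619776 in the other 12 libraries. Mitochondrially encoded genes are here the protein-coding genes of the mitochondrial genome, without its rRNA and tRNA genes. Their transcripts took 37.6% to 44.3% of the counts in heart WT and 22.5% to 27.2% in heart KO libraries. In ECs they took 19.4% to 30.7% in WT and 24.1% to 30.9% in KO libraries. The summed TPM of 4 Y-linked genes was 2.51 in EC KO 2 and 2.85 in EC KO 3, and at least 42.2 in each of the other 11 libraries. EC KO 2 and EC KO 3 may thus come from females. Sex and genotype can therefore not be fully told apart in the EC comparison and in the interaction. Cardiomyocyte markers summed to between 33396 and 61879 TPM in the heart libraries. In the EC libraries the 10 endothelial markers summed to between 897 and 2142 TPM and were all detected, but the 6 adipocyte markers summed to between 7557 and 15264 TPM and the 6 erythroid markers to between 3981 and 9630 TPM, so RNA of other cells was present beside that of ECs.

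To see how strongly the genes were expressed, their levels were first compared as TPM, which divides by transcript length. Averaged over all 13 libraries, the highest levels were those of *Mrpl42* (316 TPM), *Mrps21* (195 TPM), *Mrpl30* (189 TPM), *Mrpl33* (147 TPM) and *Mrps36* (137 TPM). The lowest were those of *Mrpl23* (7.25 TPM), *Mrpl1* (8 TPM), *Mrps10* (10.1 TPM), *Mrps30* (10.8 TPM) and *Mrpl19* (12.1 TPM). The levels of the strongest and the weakest gene thus lay far apart, although most proteins are present once in each mitoribosome. *Mrpl42*, a protein found only in mitochondria, was 319 ± 32.6 TPM (SD, n = 4) in heart WT and 231 ± 40.1 TPM (n = 3) in EC WT. *Mrps21* was 132 ± 10.7 TPM in heart WT and 253 ± 47.4 TPM in EC WT. The order by mean differed between groups, since *Mrpl42* led in both heart groups, while in EC WT it lay within the spread of *Mrps21*, *Mrps36* (237 ± 42.5 TPM) and *Mrpl30* (235 ± 29.7 TPM). *Mrpl30* and *Mrps21* did not differ beyond their spread in heart WT (129 ± 17.9 and 132 ± 10.7 TPM). Of the 31-base words of *Mrpl23*, 14.1% also occur elsewhere, foremost in *Mrpl23-ps1*, and *Mrps30* is the longest of the 78 (3322 bases).

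The sum over the 78 genes was 2749 to 3458 TPM in heart WT and 5219 to 6738 TPM in heart KO libraries, a ratio of the means of 1.94. In ECs it was 4711 to 5936 TPM in WT and 3468 to 3960 TPM in KO libraries, a ratio of 0.709. Neither pair of groups overlapped. TPM add up to the same total in every library, so these sums move with the share of the mitochondrial transcripts. When TPM were rescaled without the mitochondrially encoded genes, the sum was 7820 to 8392 TPM in heart WT and 9225 to 10284 TPM in heart KO libraries (ratio 1.20), and 7865 to 9202 TPM in EC WT and 6786 to 7149 TPM in EC KO libraries (ratio 0.794). The directions held and the groups still did not overlap, with a smaller distance in both tissues. The ratios without the 14 genes in which other genes hold 20% or more of the words were 1.95 and 0.697.

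**Figure D1:**
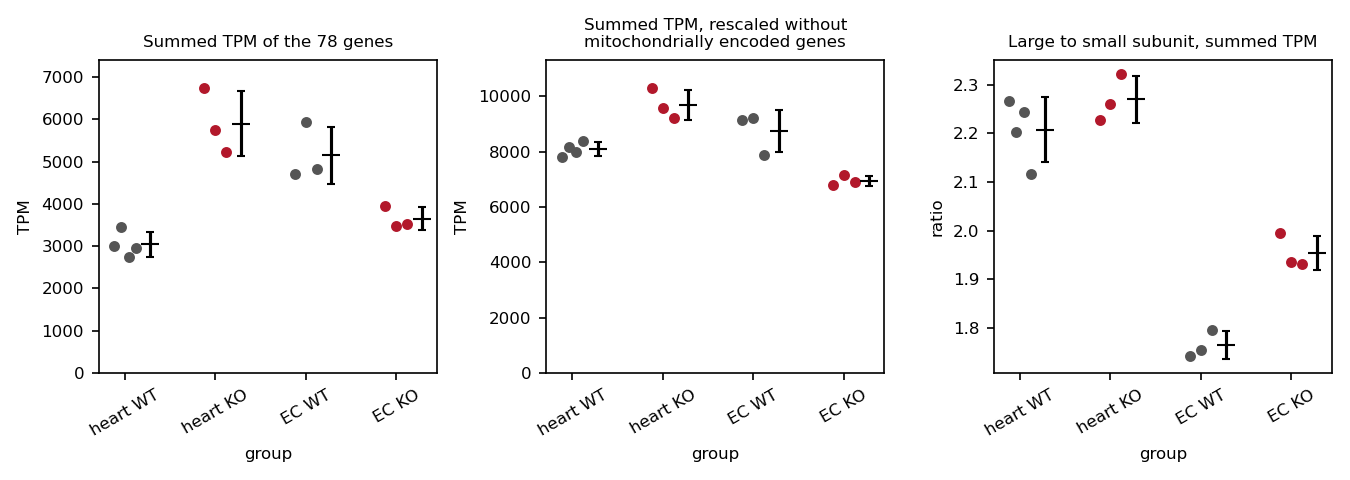
Summed TPM of the 78 genes per library, the same sum after rescaling TPM without mitochondrially encoded genes, and the ratio of the large to the small subunit sum, by group. Points are libraries and bars are the mean ± SD (heart WT n = 4, others n = 3). KO libraries lie above WT in heart tissue and below WT in ECs in the first and second plots, and the ratio separates the EC groups (1.74 to 1.80 in WT, 1.93 to 2.0 in KO). The subunits are by symbol, so the small subunit sum includes *Mrps36*.

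In heart tissue, KO mice had higher levels of nearly the whole group. Of the 78 genes, 77 were higher in KO than in WT hearts and 70 passed the test (edgeR, Benjamini-Hochberg adjusted p of at most 0.05), with a median log2 fold change of 0.60, compared to -0.0091 over all 13816 genes tested. Of all genes tested, 17.2% were called higher. No gene of the group was called lower by edgeR or by DESeq2, and none was lower at an unadjusted p under 0.05, whereas 16.2% of all genes were called lower. The KO and WT libraries did not overlap for 71 of the 78, all higher, compared to 20.6% of all genes. A log2 fold change of at least 1, which with the adjusted p defines a DEG, was reached by 3 of the 78, compared to 2.66% of all genes. The shift was thus broad and of moderate size.

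These 3 genes were *Mrps16*, *Mrps24* and *Mrpl12*. *Mrps16*, a small subunit protein with a bacterial counterpart whose loss in humans causes mitochondrial disease, was 24.1, 25.8, 26.0 and 22.9 CPM in heart WT and 70.9, 47.4 and 38.4 CPM in heart KO libraries. Every KO heart was above every WT heart, and KO 1 was the highest. *Mrps16* (chr14:20439372-20443713, minus strand, GRCm39) rose by 1.08 on the log2 scale (SE 0.17, adjusted p = 0.00154). *Mrpl12*, a protein of the stalk of the large subunit that also binds the mitochondrial RNA polymerase, was 114, 125, 115 and 110.2 CPM in heart WT and 339.9, 219 and 163 CPM in heart KO libraries. The groups were again apart, with the same order of the KO hearts, and *Mrpl12* (chr11:120375430-120381396, plus strand) rose by 1.05 (SE 0.19, adjusted p = 0.00282). *Mrps24* (chr11:5642243-5665680, minus strand), a small subunit protein with a bacterial counterpart, was 20.1, 20.2, 20.9 and 33.2 CPM in WT and 67.3, 52.4 and 29.6 CPM in KO hearts. Here the groups overlapped, because KO 3 was below WT 4, although the gene passed the test (log2 fold change 1.06, SE 0.25, adjusted p = 0.0091).

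The next largest differences were those of *Mrpl53* (a protein found only in mitochondria, 0.98, SE 0.19), *Mrps34* (0.97, SE 0.19) and *Mrpl14* (0.95, SE 0.15), on the log2 scale. *Mrpl53* was 27.2 to 31.5 CPM in WT hearts and 38.7 to 79.5 CPM in KO hearts. *Mrpl14*, a large subunit protein with a bacterial counterpart, was 25.3 to 27.3 CPM and 39.7 to 65.8 CPM. Neither gene overlapped between the groups. *Mrps34* shares 80.5% of its words with other genes and lies across *Mapk8ip3* on the other strand, so its counts cannot be assigned to it alone. Among the genes named for their place or role, *Mrpl44* rose by 0.54 (SE 0.10, adjusted p = 0.00337) and *Mrps22* by 0.57 (SE 0.13, adjusted p = 0.00779). *Mrpl3*, *Mrps14* and *Mrps36*, which were named on the same ground, did not pass the test and are given below. *Mrpl58*, a peptidyl-tRNA hydrolase built into the large subunit, rose by 0.60 (SE 0.14, adjusted p = 0.00866).

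There were 8 genes that did not pass the test in heart tissue, namely *Mrpl1*, *Mrpl3*, *Mrpl35*, *Mrpl39*, *Mrps10*, *Mrps14*, *Mrps25* and *Mrps36*. *Mrpl3*, which binds near the peptidyl transferase center, was 57.5 to 61.2 CPM in WT and 61.2 to 76.4 CPM in KO hearts (log2 fold change 0.20, adjusted p = 0.125). *Mrps14*, which lies in the head of the small subunit, was 24.3 to 30.3 CPM and 27.9 to 40.4 CPM (0.30, adjusted p = 0.102). The groups overlapped or touched in both. The lowest value of the 78 was that of *Mrps36*, the gene that encodes no ribosomal protein, which was 50.4, 53.9, 54.0 and 61.3 CPM in WT and 64.0, 55.2 and 44.1 CPM in KO hearts (log2 fold change -0.016, SE 0.13, adjusted p = 0.936).

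**Figure D2:**
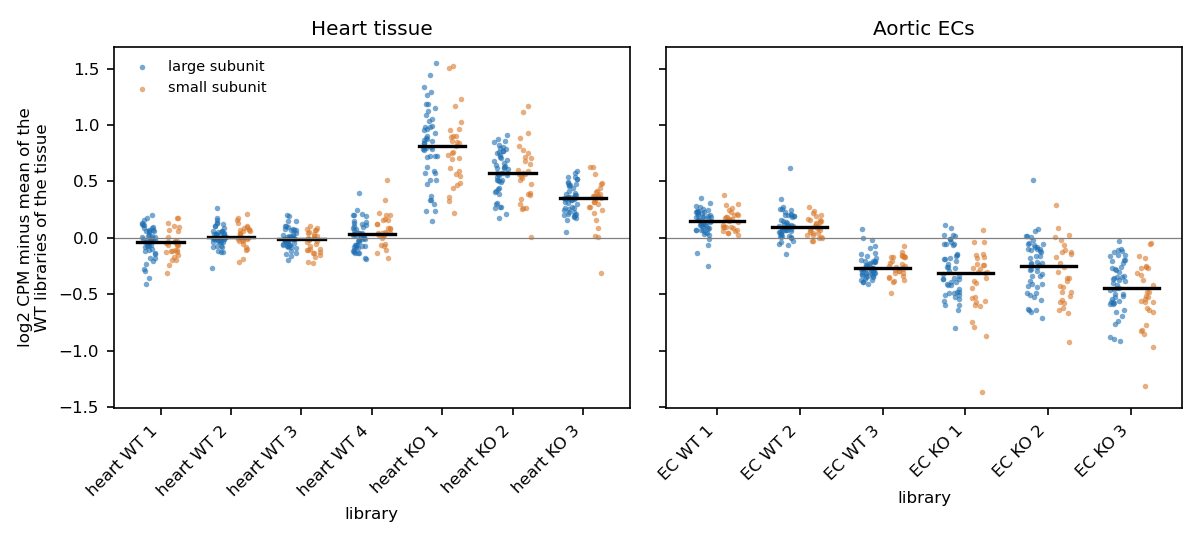
Level of each of the 78 genes in each library, as log2 CPM (with 0.5 added) minus the mean of the WT libraries of the same tissue. Points are genes, coloured by subunit, and bars are medians over the 78. The medians of heart KO 1, 2 and 3 lie at 0.81, 0.58 and 0.35, and EC WT 3 (-0.27) lies with the EC KO libraries (-0.31, -0.25 and -0.44).

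The difference was not equal across the KO hearts. The median over the 78 genes, relative to the mean of the WT hearts, was 0.81 in KO 1, 0.58 in KO 2 and 0.35 in KO 3, and between -0.034 and 0.035 in the 4 WT hearts. Leaving out each heart library in turn gave 62 to 75 genes called higher. Without heart WT 1, the library of low depth, 68 were called. Other measures moved with genotype in the hearts. With TPM rescaled without mitochondrially encoded genes, the 6 erythroid markers summed to 992 to 1836 in WT and 4163 to 5352 in KO hearts, with all 5 that were tested called higher, and the 6 macrophage markers to 195 to 287 and 302 to 419, with 3 called higher and none lower. On the same scale the 10 cardiomyocyte markers summed to 97177 to 101691 in WT and 94447 to 98055 in KO hearts, which overlapped, with 4 called higher and 1 lower. The mitochondrial share of the counts also differed between the genotypes, as given above. With the mitochondrially encoded genes left out before normalization, 70 of the 78 were still called higher, and the part of the other measures was not tested. In whole tissue, more cells of a type and more RNA per cell cannot be told apart.

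Because the proteins of the mitoribosome are small, their transcripts are short, and length was examined next. The 78 genes had a median transcript length of 1055.7 bases, compared to 2573 bases over all genes tested in heart tissue. Across all genes the log2 fold change in heart tissue fell with length (Spearman's rho -0.51 across 13816 genes, which are not independent and share their libraries), and it did so within the group (rho -0.49 across 78). It rose with GC content (rho 0.23 across all genes and 0.45 across the 78). When all genes were split by length into 5 groups of equal size, 62 of the 78 fell into the shortest, up to 1459 bases. In this group the other 2702 genes had a median log2 fold change of 0.40, 79.5% of them were higher in KO hearts and 41.9% were called higher. The 62 mitoribosomal genes had a median of 0.63, and 58 were called higher. In the next group the other genes had a median of 0.16 and the 12 mitoribosomal genes 0.35. The same held library by library, since the median of the shortest group was 0.54, 0.37 and 0.16 in KO 1, 2 and 3, beside 0.81, 0.58 and 0.35 for the 78 genes.

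**Figure D3:**
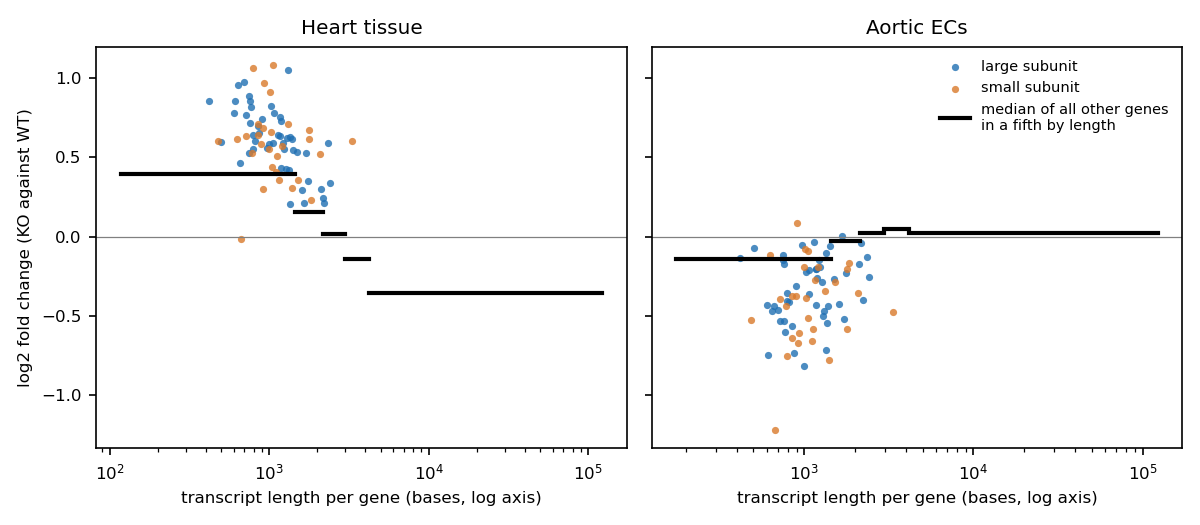
Log2 fold change (KO against WT) of the 78 genes against transcript length on a log axis, in heart tissue and in ECs. Coloured points are genes by subunit, and black bars are the medians of all other genes in 5 groups by length. In heart tissue the bars fall from 0.40 in the shortest group to -0.36 in the longest, and most genes of the group lie above the first bar. In ECs the bars lie between -0.14 and 0.05, and most genes lie below the first.

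A fit with an offset for length and GC content, which removes the trend across all genes from each library, was therefore set beside the first. Within the 78 genes it left a trend of the other sign in length (rho 0.26 in heart tissue, and -0.39 in ECs, where it had been 0.19). Across all genes the rho with length was then -0.051 in heart tissue and -0.046 in ECs. The other genes of the shortest group then had medians of 0.047 in heart tissue and 0.085 in ECs. Whether values of the shortest of the 78 genes were corrected too far was not tested. It left a median log2 fold change of 0.25 for the group and 33 genes called higher, compared to 13.3% of all genes, and 1 called lower, compared to 12%. All 33 were among the 70. The largest values that remained were those of *Mrps30* (0.78, adjusted p = 4.86e-04), *Mrpl12* (0.72, adjusted p = 0.00322), and *Mrps16* (0.67, adjusted p = 0.00158), followed by *Mrps24* and *Mrps2* (both 0.52), all as log2 fold changes. *Mrps30* rose in the first fit as well (0.60, adjusted p = 0.00204), from 25.7 to 31.2 CPM in WT to 39.2 to 45.4 CPM in KO hearts, while genes of its length had a median of -0.14. Of these 5, *Mrps24* did not pass the test (adjusted p = 0.057). *Mrps21* and *Mrpl33*, 2 of the shortest of the group, turned to -0.11 and -0.032. The gene called lower was *Mrps36* (-0.52, adjusted p = 0.00123). The size of the rise, and the call of those of the 70 that were not among the 33, thus depended on the treatment of length and GC content, which were changed together.

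In ECs the same genes pointed the other way. Of the 78 genes, 76 were lower in EC KO than in EC WT libraries and the median log2 fold change was -0.36, compared to -0.017 over all 15301 genes tested. Of these, 16 genes were called lower, compared to 8.06% of all genes. No gene was called higher by edgeR or by DESeq2, nor higher at an unadjusted p under 0.05, whereas 10% of all genes were called higher. The libraries of the groups did not overlap for 27 of the 78, all lower, compared to 18.7% of all genes. Only *Mrps36* fell by more than 1 on the log2 scale, compared to 3.89% of all genes.

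*Mrps36* (chr13:100872116-100881584, minus strand) was 127, 121 and 82.8 CPM in EC WT and 41.8, 57.0 and 43.2 CPM in EC KO libraries. The groups were apart, and *Mrps36* fell by 1.22 on the log2 scale (SE 0.20, adjusted p = 0.00952). *Mrpl2*, a large subunit protein at the peptidyl transferase center, was 73.3, 67.8 and 49.0 CPM in WT and 35.6, 39.4 and 32.9 CPM in KO libraries (log2 fold change -0.82, SE 0.17, adjusted p = 0.0189). *Mrps9*, a small subunit protein with a bacterial counterpart, was 63.9, 53.0 and 41.8 CPM and 30.8, 33.2 and 28.7 CPM (-0.77, SE 0.17, adjusted p = 0.0215). In each of these genes EC WT 3 was the lowest of the WT libraries and still above every KO library. *Mrps24* was 53.8, 48.2 and 42.5 CPM in WT and 31.5, 30 and 24.3 CPM in KO libraries, and fell by 0.75 on the log2 scale (adjusted p = 0.0156). *Mrpl34* (-0.75, adjusted p = 0.0239) and *Mrpl55* (-0.73, adjusted p = 0.0318) were the remaining 2 of the 6 with the largest falls.

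Of the genes named for their place or role, *Mrps18b* fell (-0.51, adjusted p = 0.0452), while its paralogs *Mrps18a* (-0.37, adjusted p = 0.0547) and *Mrps18c* (-0.11, adjusted p = 0.485) did not pass the test. *Mrps18c* shares 75.3% of its words with other genes, mainly *Abraxas1*. *Mrpl3* fell by 0.54 on the log2 scale (adjusted p = 0.047). *Mrps16* and *Mrpl12*, which were among the genes with the largest rise in heart tissue, had values of -0.09 (adjusted p = 0.659) and -0.47 (adjusted p = 0.107) in ECs. *Mrps14* had the highest fold change of the 78 in ECs, with levels of 51.9, 47.8 and 33.8 CPM in WT and 46.0, 53.6 and 42.2 CPM in KO libraries (0.09, adjusted p = 0.755), with overlapping groups.

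The calls in ECs rested on single libraries. Without EC KO 3 edgeR called no gene of the group, with 19 lower at an unadjusted p under 0.05 and 72 lower in direction, and without EC WT 3 it called 41. Leaving out EC WT 1, EC WT 2, EC KO 1 or EC KO 2 gave 2, 5, 4 and 3 called lower. DESeq2 called 29. With only the EC libraries that held Y-linked transcripts, which left EC KO 1 as the lone KO library and assumed that it varied like the WT libraries, edgeR called none, with 7 at an unadjusted p under 0.05, 72 lower in direction and a median of -0.33. With the offset for length and GC content the median was -0.12, with 3 called lower (*Mrpl50*, *Mrps36* and *Mrps9*), compared to 7.73% of all genes, and 2 called higher (*Mrpl33* and *Mrpl52*), compared to 9.80%. Without the offset, the log2 fold change in ECs had a rho of 0.11 with length and -0.33 with GC content across all genes. Across the 78 genes these were 0.19 and -0.30. In the shortest of the 5 groups by length, 11.8% of the other genes were called lower with a median of -0.14, beside 16 of the 62 mitoribosomal genes with a median of -0.39.

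Markers of other cells moved with genotype in the ECs. With TPM rescaled without mitochondrially encoded genes, the 10 cardiomyocyte markers summed to 225 to 1074.6 in EC WT and 14.4 to 21.7 in EC KO libraries, with 9 called lower, and the 5 skeletal muscle markers to 62.5 to 180.1 and 3.27 to 11.8, with all 5 called lower. Of these markers, *Myh4* was at or under 3 counts in the EC KO libraries. Fibroblast markers summed to 1359 to 2879 in WT and 4439 to 5147 in KO libraries, with 3 of 6 called higher and 1 lower, and macrophage markers to 471 to 717 and 984 to 1602, with 4 of 6 called higher. Endothelial markers summed to 1743 to 2834 and 3272 to 4175, with 4 of 10 called higher and 1 lower. Smooth muscle markers (3048 to 5834 and 1232 to 3876, with 2 of 6 called lower), adipocyte markers (16376 to 23662 and 15576 to 17025, none called) and erythroid markers (9190 to 15718 and 8206 to 15284, none called) overlapped between the genotypes. The part of these cells in the lower levels of the 78 genes was not tested.

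**Figure D4:**
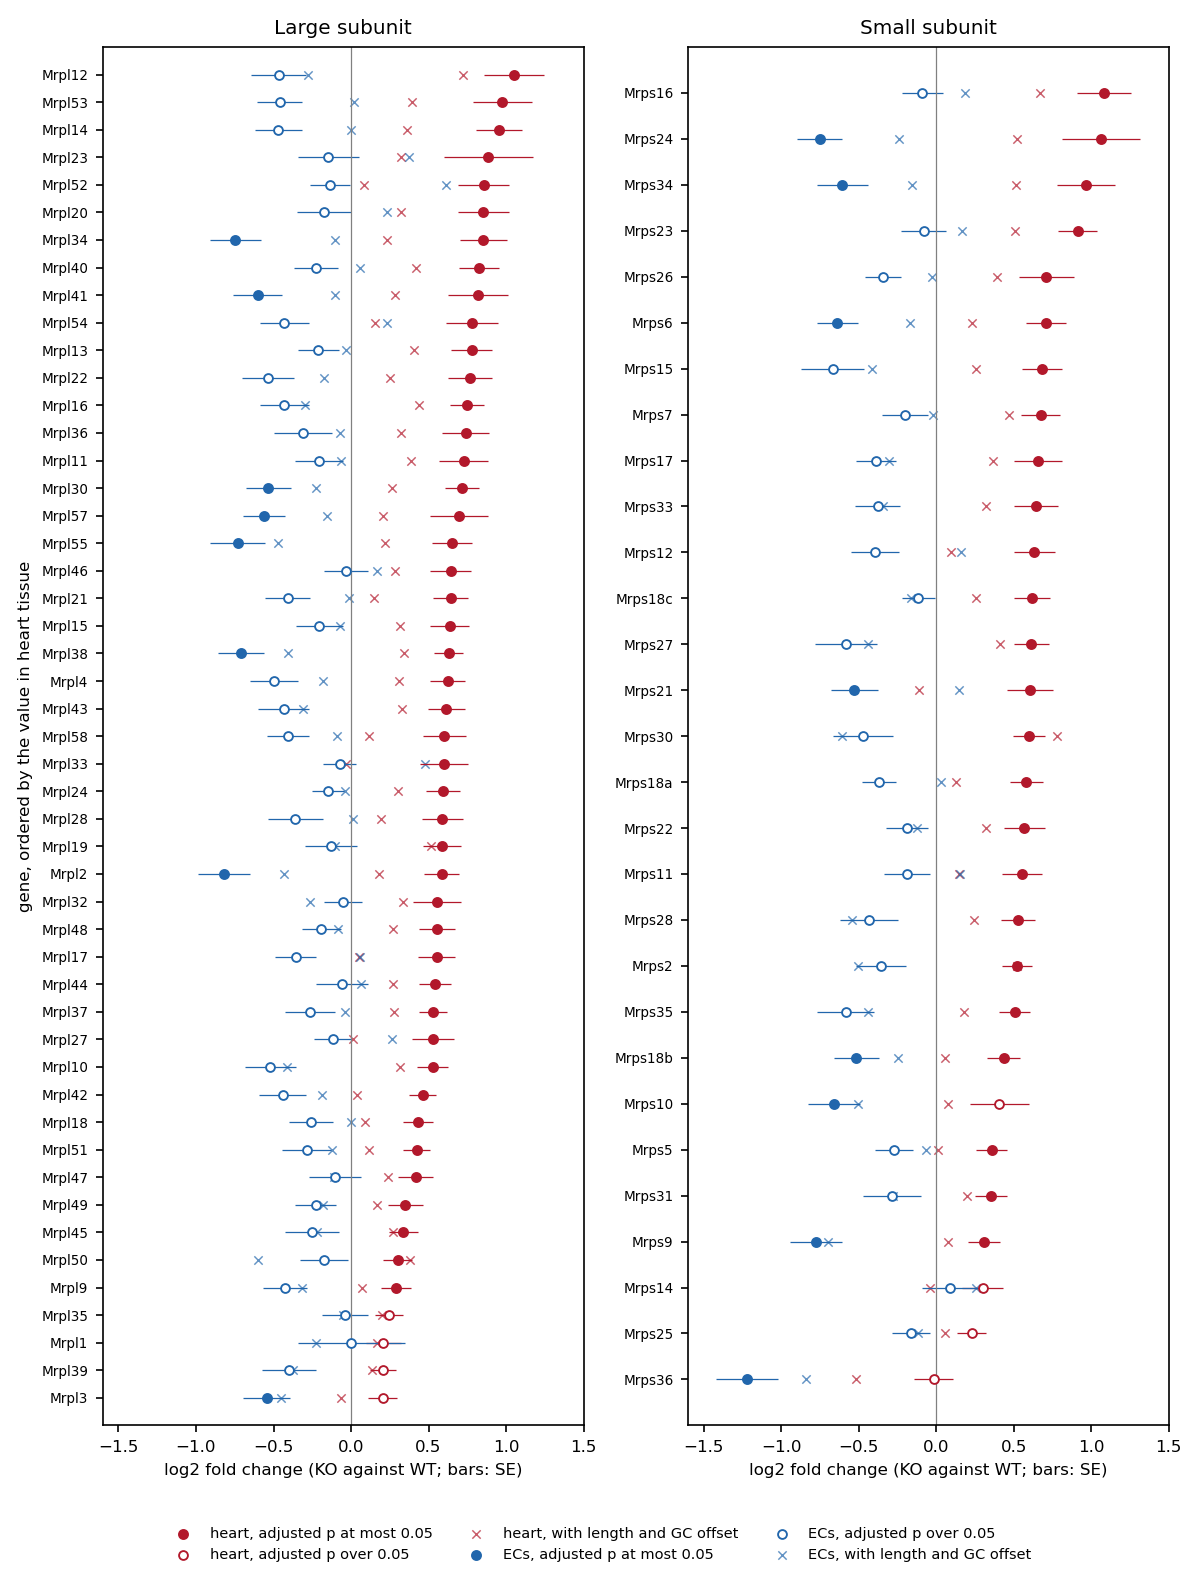
Log2 fold change (KO against WT) of every gene in heart tissue (red) and ECs (blue), for the large subunit on the left and the small subunit on the right. Filled points passed an adjusted p of 0.05, open points did not, bars are SE and crosses are the values with an offset for length and GC content. In heart tissue 70 of the 78 points are filled and lie to the right, in ECs 16 are filled and lie to the left, and the crosses lie nearer to 0 for most genes.

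Whether the KO effect differed between the tissues, in sign or in size, was tested as a tissue by genotype interaction over all 13 libraries. The difference between the KO effects (heart minus ECs) was positive for all 78 genes, with a median of 1.03 on the log2 scale, compared to 0.026 over all 15938 genes tested. It passed the test for 75, compared to 16.2% of all genes in this direction, and no gene passed it in the other direction, compared to 12.7%, with none at an unadjusted p under 0.05 and none by DESeq2. The exceptions were *Mrpl1*, *Mrpl35* and *Mrps14*. The largest differences were those of *Mrps24* (1.85, SE 0.34, adjusted p = 0.00198), *Mrpl34* (1.64, SE 0.24, adjusted p = 4.99e-04), *Mrps34* (1.61, SE 0.28, adjusted p = 0.0013), *Mrpl12* (1.55, SE 0.30, adjusted p = 0.0023) and *Mrpl53* (1.47, SE 0.27, adjusted p = 0.00191). *Mrpl34* shows the pattern in its libraries, at 20.4 to 26.0 CPM in heart WT, 31.4 to 50.5 CPM in heart KO, 57.4 to 83.5 CPM in EC WT and 38.9 to 46.5 CPM in EC KO libraries. Both tissues were separated by genotype for this gene, in opposite directions. With the offset for length and GC content the median was 0.49 and 37 genes passed, compared to 12.9% of all genes. Without EC KO 2 the test was passed by 72 genes, and without EC KO 3 by 66. The interaction was not fitted without both of these libraries, which had low Y-linked levels.

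By each tissue's own values, 75 of the 78 genes were higher in KO hearts and lower in KO ECs, and 13 were called in both tissues. The 5 genes called in neither were *Mrpl1*, *Mrpl35*, *Mrpl39*, *Mrps14* and *Mrps25*. *Mrps36* combined the lowest value of the group in ECs with the lowest in heart tissue, and its interaction (1.24, SE 0.24, adjusted p = 0.00241) was that of its fall in ECs, since its heart value was -0.016.

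**Figure D5:**
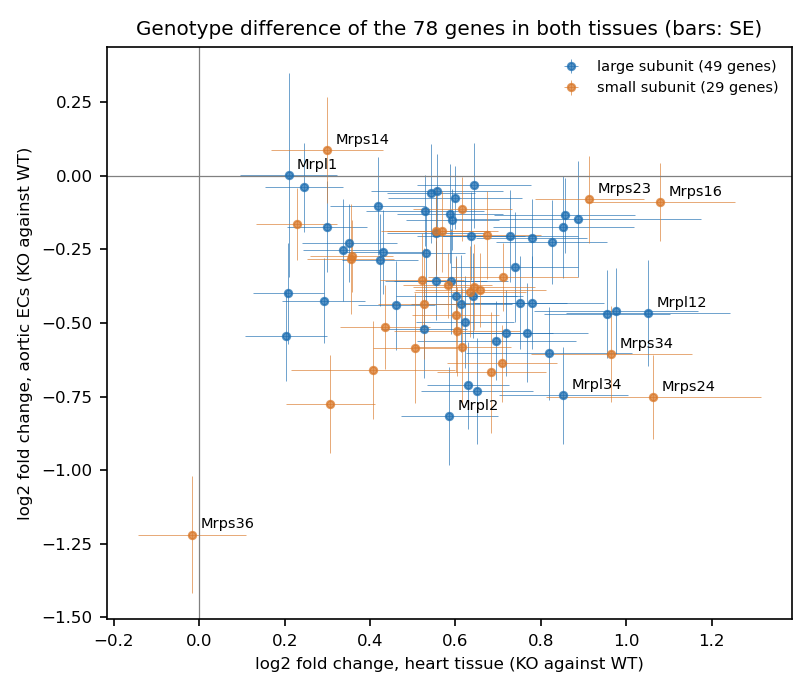
Log2 fold change in ECs against that in heart tissue (KO against WT) for the 78 genes, coloured by subunit, with SE as bars. The axes share no library, but may share mice. Of the 78 points, 75 lie to the right of 0 and below 0, and *Mrps36* stands apart at -0.016 and -1.22.

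To compare the subunits, the same values were split. In heart tissue, 45 of 49 large subunit genes and 25 of 29 small subunit genes were called higher, and both medians were 0.60. Sorting by place in the structure gave 47 of 51 and 23 of 26, with medians of 0.60 and 0.61. In ECs, 8 of 49 and 8 of 29 were called lower, with medians of -0.31 and -0.39, and by place in the structure 8 of 51 and 7 of 26, with -0.36 and -0.38. The difference of the medians in ECs (0.078) exceeded the spread between libraries of a group (SD 0.053) by symbol, but not by place in the structure (0.026). By symbol and relative to the mean of the EC WT libraries, the large and small subunit medians were -0.318 and -0.312 in EC KO 1. They were -0.225 and -0.355 in EC KO 2, and -0.404 and -0.517 in EC KO 3. The difference was thus not seen in EC KO 1. The median transcript lengths of the subunits were 1134 bases (large) and 1023 bases (small). Genes with a bacterial counterpart (46) and genes found only in mitochondria (31) had medians of 0.61 and 0.60 in heart tissue and of -0.36 and -0.37 in ECs.

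The ratio of the summed TPM of the large to the small subunit was 2.12 to 2.27 in heart WT and 2.23 to 2.32 in heart KO libraries, which overlapped. In ECs it was 1.74 to 1.80 in WT and 1.93 to 2.0 in KO libraries, and the groups were apart. In CPM, which are not divided by length, the EC ranges were 1.86 to 1.89 and 1.96 to 2.0. The ratio was higher in hearts than in ECs for either genotype. It sums few strongly expressed genes, since *Mrpl42* alone gave 289 to 365 TPM of the large subunit in WT hearts, and *Mrps36* 199 to 282 TPM of the small subunit in EC WT libraries. In EC KO libraries *Mrps36* gave 94.8 to 107 TPM. It encodes no ribosomal protein, and the ratio was not computed without it, so its part in the EC difference is included in these values.

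The tissues themselves were compared in WT mice. Relative to all genes, 29 of the 78 genes were called higher in hearts, compared to 32.1% of all genes, and 9 were called higher in ECs, compared to 33.7%. The median was 0.23 (heart minus EC, log2), compared to -0.045 over all genes. The direction of the group as a whole depended on the scale, since 21 were called higher and 14 lower in hearts with upper-quartile normalization (median 0.08), and 57 and 1 with the offset for length and GC content (median 0.58). The summed TPM was lower in hearts (2749 to 3458 against 4711 to 5936), but overlapped once rescaled without mitochondrially encoded genes (7820 to 8392 against 7865 to 9202). Single genes were clearer. *Mrps23*, a small subunit protein found only in mitochondria, was 53.7 ± 4.81 CPM (n = 4) in WT hearts and 18.9 ± 2.46 CPM (n = 3) in WT ECs, in CPM normalized over both tissues (log2 difference 1.51, SE 0.14, adjusted p = 3.75e-07). *Mrpl42* (1.42), *Mrpl44* (1.36) and *Mrpl1* (1.16) followed. In the other direction, *Mrpl34* was 28.8 ± 3.10 CPM and 56.0 ± 10.7 CPM (-0.95, SE 0.16, adjusted p = 1.22e-04), followed by *Mrps18b* (-0.63), *Mrpl20* (-0.61) and *Mrpl17* (-0.60). The median was 0.29 for the large and 0.041 for the small subunit.

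Transcripts annotated as retaining an intron took 2.63% to 3.28% of the group's counts in the heart libraries and 4.09% to 5.01% in the EC libraries. Transcripts annotated as targets of nonsense-mediated decay took 2.74% to 3.21% in the heart and 3.36% to 3.73% in the EC libraries. The ranges of WT and KO libraries overlapped in both tissues for each type.

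The reads of neighbours can be taken for those of these genes, because strand was not used in counting. Of the 78 genes, 42 overlap a gene on the other strand and in 14 other genes hold 20% or more of the words. The median log2 fold change in heart tissue was 0.59 for genes with and 0.64 for genes without such an overlap, and in ECs -0.28 and -0.40. For 29 genes the start site lies within 1000 bases of that of a gene on the other strand. The 23 such partners tested in heart tissue that were no members had a median of 0.07, with 5 called higher and 2 lower, and the 26 in ECs had a median of -0.14, with 4 called lower. *Mrps12*, which lies at the decoding center of the small subunit, was 15.8 to 19.3 CPM in WT and 21.9 to 31.2 CPM in KO hearts (0.63, adjusted p = 0.00489), while its head-to-head partner *Sars2*, which charges mitochondrial serine tRNA, had a value of 0.060 (adjusted p = 0.79).

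Other genes of mitochondrial translation were then counted, beside 17.2% of all genes called higher in heart tissue and 8.06% called lower in ECs. Of 5 mitoribosomal proteins with other symbols, *Aurkaip1* (0.72, adjusted p = 0.00272), *Chchd1* (0.90, adjusted p = 0.00488) and *Dap3* (0.36, adjusted p = 0.0147) rose in heart tissue, and *Ptcd3* (0.14) and *Gadd45gip1* (0.062) did not pass the test. In ECs *Gadd45gip1* fell by 1.35 (adjusted p = 0.00192) and *Aurkaip1* by 0.50 (adjusted p = 0.0402) on the log2 scale. Of 24 assembly factors, 13 were called higher in heart tissue with a median of 0.38, among them the ribosome-binding factor *Rbfa* (0.73, adjusted p = 0.00162) and the GTPase *Mtg2* (0.60, adjusted p = 0.00469), and in ECs 1 was called higher (*Ybey*, 1.12, adjusted p = 0.012) and 1 lower (*Mpv17l2*, -0.53, adjusted p = 0.0466). Of 12 translation factors, 6 were called higher in heart tissue with a median of 0.30, among them the elongation factor *Tsfm* (0.60, adjusted p = 0.00363) and the initiation factor *Mtif3* (0.62, adjusted p = 0.00491). Of 21 mitochondrial aminoacyl-tRNA synthetases and related enzymes, 6 were called higher in heart tissue with a median of 0.15, among them *Fars2* (0.68, adjusted p = 0.00139), and 4 were called lower in ECs, among them *Gatb* (-0.85, adjusted p = 0.0336) and *Vars2* (-0.68, adjusted p = 0.0395). The medians of these lists lay below that of the 78 genes in heart tissue. With the offset for length and GC content, which 13.3% of all genes passed as higher in heart tissue, 2 of the 5 other mitoribosomal proteins, 10 of the 24 assembly factors, 2 of the 12 translation factors (median 0.13) and 5 of the 21 synthetases were called higher in heart tissue. *Chchd1* (adjusted p = 0.0536), *Dap3* (adjusted p = 0.394) and *Tsfm* (adjusted p = 0.0527) were then no longer called in heart tissue, nor were *Aurkaip1* (adjusted p = 0.421), *Mpv17l2* (adjusted p = 0.763) and *Vars2* (adjusted p = 0.144) in ECs.

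Of 11 genes listed under mitochondrial transcription, 4 were called higher in heart tissue with a median of 0.27, among them the elongation factor *Tefm* (0.50, adjusted p = 0.0157). Another was *Twnk* (0.34, adjusted p = 0.0333), a helicase of mitochondrial DNA replication. *Mrpl43* shares 38.5% of its words with other genes, foremost with *Twnk*, which overlaps it on the other strand. In ECs neither the transcription list nor the translation factors had a gene called by edgeR or DESeq2. At an unadjusted p under 0.05, 2 and 1 genes of these lists were lower by edgeR. Of 9 regulators of nuclear genes for mitochondria, *Esrra* rose in heart tissue (0.36, adjusted p = 0.0284), while *Ppargc1b*, a coactivator, fell by 0.73 (adjusted p = 0.00779) and *Gabpa*, the DNA-binding subunit of GABP, by 0.41 (adjusted p = 0.022) on the log2 scale. In ECs *Ppargc1b* fell by 1.54 (adjusted p = 0.0164), *Myc* by 1.09 (adjusted p = 0.0177) and *Esrra* by 0.63 (adjusted p = 0.043). With the offset for length and GC content, *Tefm* (adjusted p = 0.126), *Gabpa* (-0.066, adjusted p = 0.549) and *Esrra* (0.22, adjusted p = 0.0638) were no longer called in heart tissue, and *Ppargc1a*, a coactivator related to *Ppargc1b*, was called higher (0.41, adjusted p = 0.00566). In ECs *Esrra* was then no longer called (-0.36, adjusted p = 0.193), and *Gabpa*, at -0.17 (adjusted p = 0.382) without the offset, was called lower with it (-0.78, adjusted p = 0.00902).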

How the data were processed

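The authors pseudoaligned paired reads of each library with Kallisto 0.44.0 under default parameters, which do not use strand. The deposited estimated counts and the deposited TPM values give 1 value per transcript and library, and no scaling across libraries is stated. The methods name GENCODE M32. Here 115140 of 118489 transcripts (97.2%) matched GENCODE M39 (GRCm39) once the version was dropped, and the rest (0.755% to 1.01% of the counts) was left out. Counts and TPM were summed per gene, and counts were rounded.

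After filterByExpr (minimum count 10) and TMM normalization, genes were fitted with edgeR's quasi-likelihood test (4.0.16, R 4.3.3) within each tissue, and over 13 libraries for the interaction and the tissues. A gene was called where its p, adjusted by Benjamini-Hochberg across every tested gene, did not exceed 0.05. The offset removed from each library a smooth trend in log length and GC content. Shared words were 31 bases long. The scripts were tested on simulated data. DESeq2 was 1.42.0. Alternatives are given with the closing section. The study counts its replicates as mice, 3 per strain and tissue, whereas 4 heart WT libraries were analysed here. The labels do not tie libraries to mice, so p-values measure the spread between these libraries.

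The genes and lists were chosen with earlier results of these data known. Named genes were, per tissue, the 6 largest rises and falls among those called, the 5 highest and 5 lowest mean TPM, the 5 largest interactions, the 4 largest tissue differences in each direction, genes named for place or role, and up to 3 genes of each related list with the smallest p. The regulators, the genes with printed promoters that this rule did not name, *Mrpl40*, *Mrpl46*, *Mrpl50*, *Mrpl52*, *Mrps2*, *Sars2* and genes listed for not passing a test were named after values were seen. An alternative was added after seeing the data. The biological coefficient of variation was 0.149 in heart tissue and 0.241 in ECs.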

Additional observations from a re-analysis of the deposited data

Results flagged for a closer look

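The genotype effect differed between the tissues for 75 of the 78 genes by the interaction test (edgeR, adjusted p of at most 0.05), and for 30 of the 32 named genes. The log2 differences of the KO effects (heart minus ECs) over 1.2 were 1.85 for *Mrps24*, 1.64 for *Mrpl34*, 1.61 for *Mrps34*, 1.55 for *Mrpl12*, 1.47 for *Mrpl53*, 1.46 for *Mrpl14*, 1.44 for *Mrpl2*, 1.42 for *Mrpl55*, 1.29 for *Mrpl30*, 1.24 for *Mrps36* and 1.21 for *Mrps16*. Those from 1.0 to 1.2 were 1.17 for *Mrps21*, 1.12 for *Mrps9*, 1.11 for *Mrps30*, 1.1 for *Mrps10*, 1.07 for *Mrpl20*, *Mrpl23* and *Mrps12*, 1.05 for *Mrpl58* and 1.03 for *Mrps23*. Those under 1.0 were 0.99 for *Mrps18a* and *Mrps18b*, 0.95 for *Mrpl17*, 0.94 for *Mrpl42*, 0.80 for *Mrps22*, 0.79 for *Mrpl3*, 0.77 for *Mrps18c*, 0.75 for *Mrpl19*, 0.71 for *Mrpl33* and 0.64 for *Mrpl44*.

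In the 4 WT hearts, 1 library lay far from the others for 2 of the 35 values examined. *Mrps24* was 20.1, 20.2, 20.9 and 33.2 CPM, with a gap of 0.933 of the range, and *Mrpl33* was 33.8, 33.1, 32.8 and 40.2 CPM, with a gap of 0.866, both above Dixon's critical value for 4 samples. In both genes the library was heart WT 4. About 1 in 20 such groups exceeds the critical value by chance.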

How the results depend on the processing

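In heart tissue the count of genes called higher (70) was 33 with the offset for length and GC content, 25 with the replicate block and the offset together, and 3 with a log2 fold change of at least 1. Leaving out each library gave 62 to 75. In ECs the count of genes called lower (16) was 3 with the offset, 5 with the replicate block and the offset, 29 with DESeq2, 37 in 1 fit of all 13 libraries, 1 with a log2 fold change of at least 1, and 0 with the libraries that held Y-linked transcripts, an alternative chosen after seeing the data. Leaving out each library gave 0 to 41. The interaction (75) was 37 with the offset and 66 to 75 without single libraries, and the calls between tissues (38) were 58 with the offset and 31 to 42 without single libraries. The difference of the subunit medians was 0.0071 to 0.047 in heart tissue and 0.048 to 0.097 in ECs without single libraries. The ratios of summed TPM moved from 1.94 to 1.20 in heart tissue and from 0.709 to 0.794 in ECs when TPM were rescaled without mitochondrially encoded genes. The other alternatives left each count within 1.5 times. The cause was not tested.

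With the offset, single calls turned direction for *Mrpl33* in heart tissue (-0.032) and in the interaction (-0.31), and for *Mrps21* in heart tissue (-0.11), in ECs (0.15) and in the interaction (-0.059). With the replicate block and the offset *Mrps21* was at -0.059 in heart tissue and 0.16 in ECs. Of 2304 values of 32 named genes under an alternative, 2033 kept their side of the threshold or had no adjusted p. Another 216 lost the call, 48 gained it, and 7 that were called turned direction. Direction was not compared for values that the first fit did not call.

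Groups share replicate numbers, but the deviations of same-numbered libraries from their group means correlated at -0.03, 0.08 and 0.04 in heart tissue and 0.18, 0.04 and 0.09 in ECs. Between heart and EC libraries, which the series text calls matched, they correlated at 0.10, 0.012 and 0.046 in WT and 0.073, -0.048 and 0.12 in KO mice, so the numbers were not taken to pair libraries. With the replicate block 59 genes were called higher in heart tissue and 20 lower in ECs, and within genotype 71 passed the interaction and 41 the tissue test. Low depth limits heart WT 1, and 3 libraries per group limit calls in ECs, whose spread was larger.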
